A study of Oryctolagus cuniculus with 6 samples.

Results

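Genes of B cells and plasma cells were followed in rabbit conjunctiva, naive or with dry eye disease (DED). The list holds 40 genes named for their part in B lineage cells, and a gene was measured where the platform annotation gives a probe set to it alone. This was so for 34 of the 40, among 15587 genes with such a probe set on the array. CD79A, CR2, SPIB, PIK3AP1 and TNFRSF13B had none, and TNFSF13 (the ligand APRIL) shared its probe set with TNFSF12, so these 6 have no value of their own. FCRL3 had a pair of probe sets, of which the one with the higher mean was used.

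All rabbits were adult male Dutch Belted animals whose nictitating membranes had been removed. Naive rabbits had no induction of disease, whereas in the DED group Concanavalin A (ConA), a plant lectin that activates T cells, was injected into the periorbital lacrimal glands on days 1, 8 and 14, and full-thickness conjunctiva with Tenon's capsule was taken on day 18. Each group has 3 arrays, each with pooled RNA, from 2 animals (4 eyes) by the methods and from 3 animals (6 eyes) by the series description. ConA was delivered to the gland and not to the conjunctiva, and the groups are labelled by the treatment as a whole, so the lectin, the gland inflammation and the loss of tears cannot be told apart. Values are log2 units after Robust Multi-chip Analysis (RMA), and are given in the order of replicates 1 to 3. The 6 arrays had medians of 6.18 to 6.20, and correlated across probe sets at r = 0.9938 to 0.9947 within groups and 0.9883 to 0.9902 between them. Markers of the labelled tissue were present, with the epithelial keratin KRT5 and the membrane mucin MUC4 at 10.49 or higher on every array.

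B cells sense antigen through the B cell receptor, a membrane immunoglobulin whose signal is carried into the cell by the CD79A and CD79B chains and passed on by the kinases LYN, SYK and BTK. After activation some B cells become plasma cells, which secrete antibody. In the conjunctiva and the lacrimal gland plasma cells release dimeric IgA held together by the J chain, and the epithelium carries it to the tear film by the polymeric immunoglobulin receptor. The roles given here are those known from human and mouse cells.

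Genes grouped with the B cell surface and its receptor led the changes. MS4A1, which encodes CD20, rose 2.00-fold in DED, FCRLA, an Fc receptor-like protein inside B cells, 1.94-fold, CD22, an inhibitory co-receptor of the B cell receptor, 1.81-fold, the kinase BTK 1.69-fold, and CD79B, the signalling chain of that receptor, 1.65-fold. Of the 34 genes, 10 rose and 0 fell at an adjusted p under 0.05 (limma, Benjamini-Hochberg over 23364 probe sets). Over all probe sets 4.41% rose and 2.69% fell by the same test. At an unadjusted p under 0.05, 18 of the 34 were higher and 2 lower, and in the one-way analysis of variance of the methods, after adjustment, 9 were higher and 1 lower. The median log2 fold change was 0.23 in these genes and -0.01 in all probe sets. All DED values lay above all naive values in 16 of the 34 genes, where the share over all probe sets is 13.4%, and below them in 3, where it is 14.5%. In the other 15 the groups overlapped. In tissue of many cell types, more cells of a kind and more RNA in each cell cannot be told apart. An exact permutation test of 1 gene with 3 against 3 arrays cannot go below p = 0.1, so the calls rest on the fit across probe sets.

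**Figure D1:**
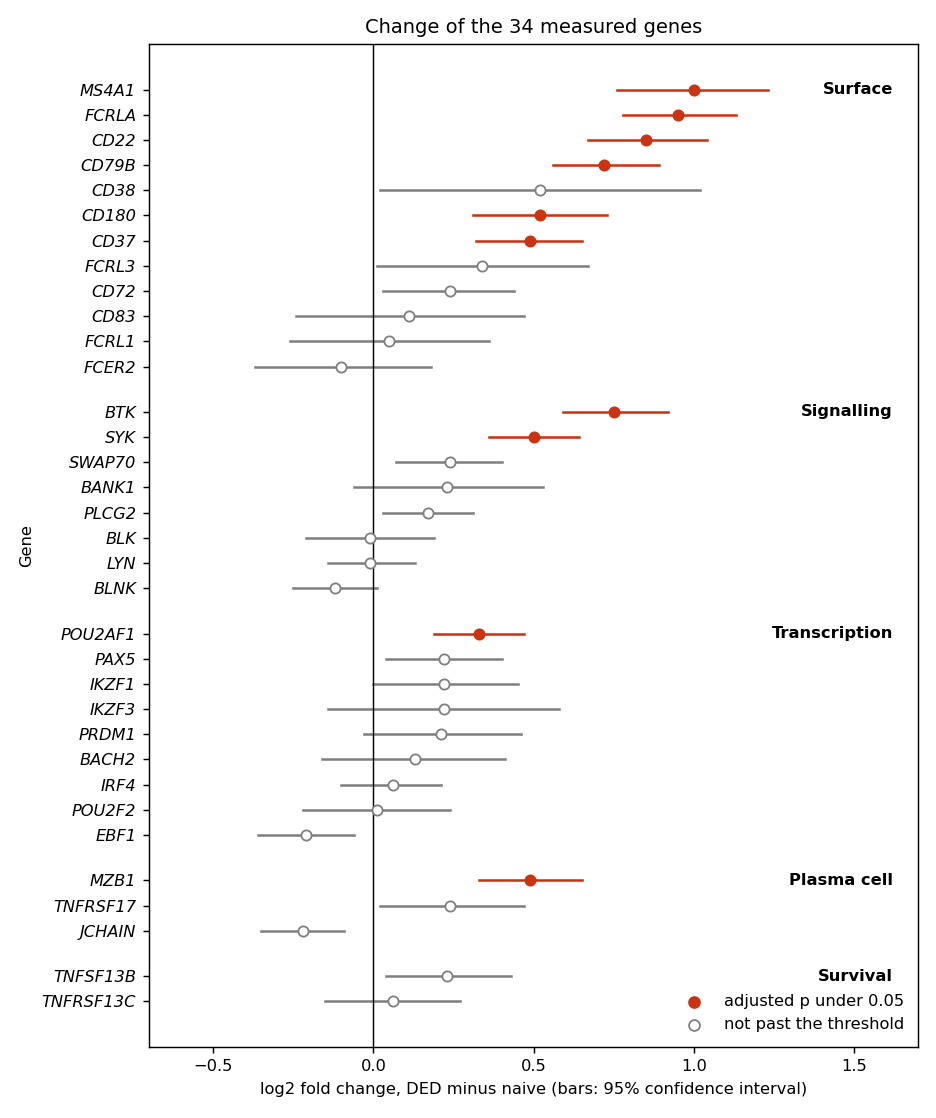
Log2 fold change of each measured gene, DED minus naive, on the horizontal axis, with genes grouped by role on the vertical axis, bars for the 95% confidence interval of limma and filled points for an adjusted p under 0.05. Filled points lie between 0.33 (POU2AF1) and 1.00 (MS4A1), and no filled point lies below 0. Of the 10, 6 are in the surface group, where FCRLA was placed although its protein lies inside the cell.

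Among the surface genes, MS4A1 lay at 5.90, 5.82 and 5.59 on the naive arrays and at 6.68, 6.76 and 6.86 on the DED arrays. The lowest DED value was thus above the highest naive value, and the change of 1.00 (limma adjusted p = 0.00253, standard error 0.10) was larger than the spread within either group (SD 0.16 in naive and 0.09 in DED, n = 3 each). FCRLA, grouped here although its protein lies inside the cell, showed the widest gap between the groups of the 10 genes. Its lowest DED value was 0.83 above its highest naive value. FCRLA lay at 5.87, 6.00 and 6.01 in naive conjunctiva and at 7.01, 6.84 and 6.89 in DED (log2 fold change 0.95, standard error 0.07, limma adjusted p = 0.00108). CD22 lay at 6.02, 6.13 and 6.10 in naive and at 6.82, 6.95 and 7.04 in DED (0.85, standard error 0.08, adjusted p = 0.00179). CD79B was at 6.79, 6.66 and 6.79 in naive and at 7.46, 7.55 and 7.40 in DED, a change of 0.72 (limma adjusted p = 0.00247, standard error 0.07). In all of these genes the values within a group stayed close together, and no naive array reached a DED array.

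Of the 5 measured surface genes that B cells share with other leukocytes, 2 rose. CD37, a tetraspanin of leukocytes, went from 7.82, 7.71 and 7.71 in naive to 8.31, 8.24 and 8.15 in DED, by 0.49 (limma adjusted p = 0.00966, standard error 0.07). CD180, a Toll-like receptor homologue of B cells and macrophages, went from 5.08, 5.36 and 5.34 to 5.78, 5.82 and 5.74, by 0.52 (standard error 0.09, adjusted p = 0.0195). Neither gene had overlapping groups, but CD180 missed the threshold without DED replicate 1, 2 or 3 (adjusted p = 0.0589 to 0.0744), and also by one-way analysis of variance (0.0666). CD38, an ectoenzyme of plasma cells and of other activated leukocytes, had the same log2 fold change of 0.52 but did not pass (adjusted p = 0.215), since its naive arrays were spread out (5.17, 5.37 and 4.59) and overlapped those of DED (5.71, 5.63 and 5.34). CD72, an inhibitory receptor, and CD83, a marker of activated B cells and dendritic cells, differed by 0.24 (adjusted p = 0.174) and by 0.11 (adjusted p = 0.718) on the log2 scale.

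The other surface genes kept mainly to B cells did not pass the test, and in each the groups overlapped. FCER2, which encodes CD23, the low-affinity IgE receptor of mature B cells, was at 5.90, 6.02 and 5.93 in naive and at 5.62, 6.05 and 5.89 in DED (log2 fold change -0.10, 95% confidence interval -0.37 to 0.18). FCRL1, an Fc receptor-like co-receptor, was at 4.74, 5.18 and 5.14 in naive and at 5.10, 4.96 and 5.15 in DED (0.05, interval -0.26 to 0.36). The intervals of FCER2 and FCRL1 end below the estimates for MS4A1, FCRLA, CD22 and CD79B. FCRL3, a relative encoded beside FCRL1, was at 4.58, 4.33 and 4.04 in naive and at 4.74, 4.65 and 4.58 in DED (0.34, adjusted p = 0.213 from limma), and its other probe set differed by 0.03 (adjusted p = 0.941). The probe sets of FCRL3 thus did not give the same value, and since the FCRL genes are close relatives, which of them a probe set reads is uncertain. FCRL1 and FCRL3 were among the 30% of probe sets with the lowest values, as was BANK1.

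**Figure D2:**
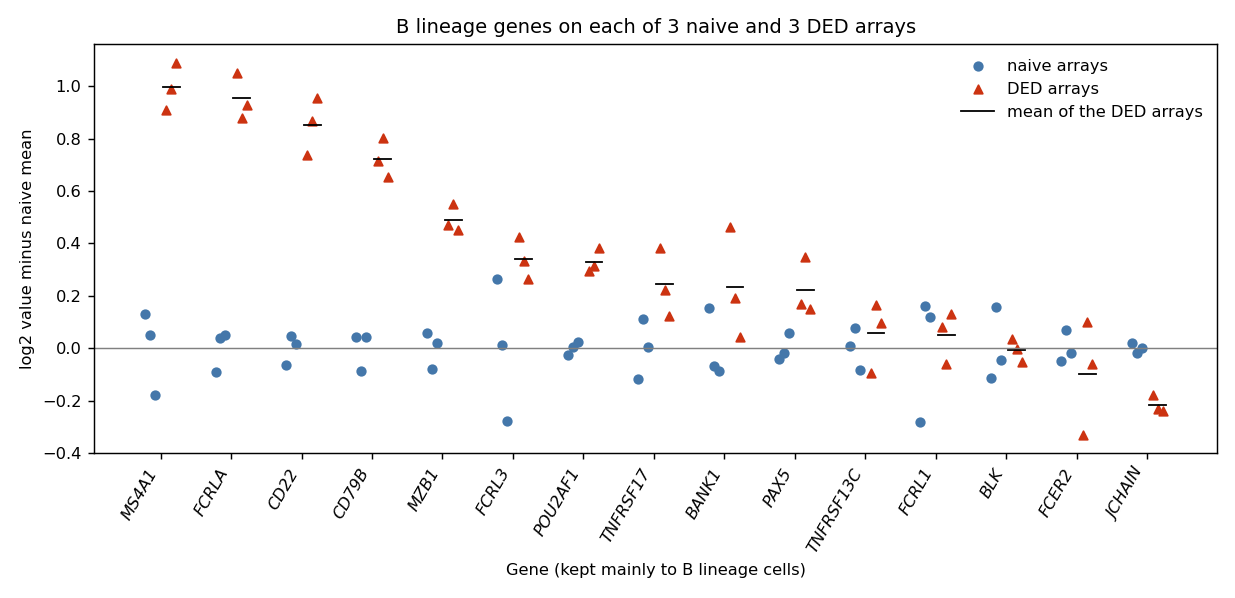
Log2 values of the 15 measured genes kept mainly to B lineage cells, minus the naive mean of each gene (vertical axis), with 1 point per array and genes ordered by change on the horizontal axis; circles are the 3 naive and triangles the 3 DED arrays, and the short line is the DED mean. MS4A1, FCRLA, CD22 and CD79B stand highest in DED, FCER2, BLK and FCRL1 overlap, and JCHAIN lies below its naive arrays.

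Of the signalling genes, SYK and BTK rose and the other 6 of 8 measured genes did not pass. BTK, the kinase that links the receptor to phospholipase C, was at 5.44, 5.41 and 5.47 in naive and at 6.17, 6.11 and 6.30 in DED (log2 fold change 0.75, standard error 0.07, adjusted p = 0.00197 from limma). SYK, the kinase that binds the phosphorylated CD79 chains, went from 6.04, 5.97 and 6.07 to 6.56, 6.51 and 6.51 (0.50, standard error 0.06, adjusted p = 0.00447). Both kinases are also used by macrophages, neutrophils and mast cells, and their groups were well apart. BLK, a kinase of the SRC family kept mainly to B cells, was at 6.02, 6.29 and 6.09 in naive and at 6.17, 6.13 and 6.08 in DED, and differed by -0.01 (interval -0.21 to 0.19). LYN, the SRC family kinase that starts receptor signalling and also serves myeloid cells, had -0.01 (interval -0.14 to 0.13). Both intervals end below the estimate of 0.75 for BTK.

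The adaptor BLNK, which gathers BTK and phospholipase C at the receptor, was at 8.02, 8.04 and 8.02 in naive and at 7.85, 7.92 and 7.95 in DED (-0.12, adjusted p = 0.278), so that its groups did not overlap and the DED arrays were the lower ones. PLCG2, that phospholipase, and SWAP70, a signalling protein of activated B cells and mast cells, were apart in the other direction, at 0.17 (adjusted p = 0.162) and 0.24 (adjusted p = 0.106). BANK1, a B cell scaffold protein, overlapped, at 5.01, 4.79 and 4.77 in naive and 5.32, 5.05 and 4.90 in DED (0.23, adjusted p = 0.335). None of these 4 passed in the reported fit, and SWAP70 passed with an intensity trend in eBayes (adjusted p = 0.0216) and without the 30% dimmest probe sets (0.0499).

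Over all probe sets 4.41% rose and 2.69% fell by limma. Of 9 measured transcription factors 1 rose and 0 fell by limma (unadjusted, 2 higher and 1 lower). It was POU2AF1, the co-activator OCA-B of B and plasma cells, which went from 7.01, 7.04 and 7.06 to 7.33, 7.35 and 7.42 (log2 fold change 0.33, standard error 0.06, adjusted p = 0.0195). Its values were tight in both groups, yet it had the smallest gap of the 10 genes, 0.27, and with any single array removed it did not pass (adjusted p = 0.0574 to 0.0724). PAX5, which keeps B cells B cells, was at 6.50, 6.52 and 6.60 in naive and at 6.71, 6.89 and 6.69 in DED. The groups of PAX5 did not overlap, but the change of 0.22 (interval 0.04 to 0.40, adjusted p = 0.146) did not pass, and its interval ends below the estimates of MS4A1, CD22 and CD79B.

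Factors of later stages and those shared with other lineages showed small differences. IRF4 and PRDM1, which drive the step to plasma cells, differed by 0.06 (adjusted p = 0.666) and by 0.21 (adjusted p = 0.286). IKZF1 and IKZF3, zinc finger factors of lymphocytes, both had 0.22 (adjusted p = 0.235 and 0.456), with groups apart for IKZF1 only. BACH2, which holds back the plasma cell programme, had 0.13 (adjusted p = 0.603), and POU2F2, the octamer factor that works with POU2AF1, 0.01 (adjusted p = 0.966). EBF1, an early B cell factor that is also made by fat and stromal cells, was the transcription factor with the lowest change, from 8.25, 8.13 and 8.19 in naive to 8.03, 7.94 and 7.97 in DED (-0.21, interval -0.36 to -0.06). All DED values of EBF1 lay below all naive values, and it did not pass in the reported fit (adjusted p = 0.103) but did with an intensity trend (0.021) and without the 30% dimmest probe sets (0.0473).

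The 3 plasma cell genes did not move together. MZB1, a chaperone of antibody folding in the endoplasmic reticulum, rose from 6.58, 6.44 and 6.54 to 6.99, 7.07 and 6.97 (log2 fold change 0.49, standard error 0.06, adjusted p = 0.00761 from limma). TNFRSF17, the survival receptor BCMA of plasma cells, was at 5.72, 5.95 and 5.84 in naive and at 6.22, 6.06 and 5.96 in DED, where the closest arrays were 0.01 apart, and its change of 0.24 (adjusted p = 0.195) did not pass. JCHAIN, the joining chain of dimeric IgA and of IgM, was at 12.87, 12.83 and 12.85 in naive and at 12.67, 12.62 and 12.61 in DED. All 3 DED arrays were thus below all 3 naive arrays, by 0.16 at the nearest, with SDs of 0.02 and 0.03. The change of JCHAIN, -0.22 (standard error 0.05, interval -0.35 to -0.09), did not pass in the reported fit (adjusted p = 0.0673), and it passed in 5 of the 10 alternatives that keep all arrays and in none of the 6 that leave 1 out (adjusted p = 0.129 to 0.17). The brightest probe set of each array read 14.04 to 14.08, above JCHAIN. Whether the probes of JCHAIN were near saturation was not tested.

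The genes were also set against JCHAIN on the same array. Of the 33 others, 26 were higher relative to JCHAIN on all DED arrays than on any naive array, 0 lower without overlap, and 7 overlapped (FCER2, FCRL1, TNFRSF13C, CD83, BLNK, EBF1 and POU2F2). Over all probe sets 47% were higher in this way and 2.03% lower, so the direction is shared by much of the array. MS4A1 minus JCHAIN was -6.97, -7.01 and -7.26 in naive and -5.99, -5.86 and -5.75 in DED, a change of 1.21 (SD 0.16 and 0.12, n = 3; exact permutation test, two-sided, p = 0.1, the smallest possible). CD22 and CD79B gave 1.07 and 0.94 by the same measure, and MZB1, which like JCHAIN serves antibody secretion, 0.71. All 4 had naive and DED arrays apart. This outcome and its p-value were fixed in advance, since these genes were higher and JCHAIN lower on every DED array. They add nothing to the values given above. JCHAIN was chosen for this comparison after its values had been seen, and only the change between groups can be read, since the distance between a pair of probe sets on 1 array also depends on the probes.

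Of the survival ligands and receptors only a pair was measured beside TNFRSF17, which is given above with the plasma cell genes. TNFSF13B, the survival factor BAFF made by myeloid and epithelial cells, was at 5.57, 5.64 and 5.58 in naive and at 5.88, 5.68 and 5.93 in DED. The groups were apart by 0.04, and the change of 0.23 (interval 0.04 to 0.43) did not pass (adjusted p = 0.154 from limma). TNFRSF13C, the BAFF receptor of B cells, was at 6.83, 6.90 and 6.74 in naive and at 6.73, 6.99 and 6.92 in DED, with groups that overlapped and a change of 0.06 (interval -0.15 to 0.27). The probe set that TNFSF13 shares with TNFSF12 was lower on all DED arrays, at -0.25 (adjusted p = 0.117), and cannot be given to either gene.

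Genes kept mainly to B lineage cells and genes shared with other cells were counted apart. Of 15 measured lineage genes 6 rose (MS4A1, CD22, CD79B, FCRLA, POU2AF1 and MZB1), with a median log2 fold change of 0.24 over the 15. Of 19 shared genes 4 rose (BTK, SYK, CD37 and CD180), with a median of 0.22. In neither set did a gene fall by limma (unadjusted, 1 lower in each). The shares that rose were 40% and 21.1%, where 4.41% of all probe sets rose and 2.69% fell. The medians were nearly the same although the changes that passed reached 1.00 in the first set and 0.75 in the second.

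Beyond the 40 genes, other genes of B cell biology were counted from lists. Of 17 measured further genes of the B cell receptor pathway, 0 rose and 0 fell by limma (unadjusted, 3 higher and 2 lower; 0 by the one-way analysis of variance after adjustment), with a median of 0.08. PTPN22, a phosphatase that dampens receptor signalling, and PRKCB, the protein kinase C of B cells, had the largest differences of these, at 0.40 (adjusted p = 0.189) and 0.36 (adjusted p = 0.141). Of 17 germinal centre and mucosal homing genes 3 rose and 1 fell by limma (2 and 1 in the one-way analysis of variance). The shares over all probe sets by limma were 4.41% and 2.69%. CXCL13, the chemokine that draws B cells into follicles, was at 6.07, 5.88 and 5.78 in naive and at 6.85, 6.76 and 6.88 in DED (log2 fold change 0.92, adjusted p = 0.00242), and its receptor CXCR5 was at 4.80, 4.79 and 4.68 in naive and 5.20, 5.20 and 5.63 in DED (0.59, adjusted p = 0.0436), the latter among the 30% dimmest probe sets. Ligand and receptor were thus both higher on every DED array than on any naive array. PIGR, the polymeric immunoglobulin receptor of epithelium, rose by 0.33 (adjusted p = 0.0159), on the same arrays on which JCHAIN, which links IgA to it, was at -0.22. BCL6, the master factor of germinal centre B cells, which many other cells also make, fell, at -0.35 (adjusted p = 0.0207). CXCL13 passed with each of the 6 arrays left out, whereas PIGR failed in all 6 of these fits (adjusted p = 0.0537 to 0.0631). CXCR5 and BCL6 each failed in 5 of the 6 (0.0358 to 0.125 and 0.0388 to 0.0786), CXCR5 passing without DED replicate 3 and BCL6 without naive replicate 3.

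Of 21 measured genes of the secretory programme of plasma cells, 1 rose and 1 fell, with a median of 0.05. Over all probe sets 4.41% rose and 2.69% fell. The share that rose here, 4.76%, was near that, so nothing about the programme is read from the count. TXNDC11, a thioredoxin of the endoplasmic reticulum, rose by 0.26 (adjusted p = 0.039 from limma), and CREB3L2, a membrane-bound factor of secretory cells, fell, at -0.45 (adjusted p = 0.00884). CREB3L2 passed with each array left out and TXNDC11 with none (adjusted p = 0.0868 to 0.114). These genes also work in goblet and gland cells. No probe set was matched to any of the 83 immunoglobulin variable segments and constant regions in the RefSeq table. The annotation did not list 7172 probe sets, so antibody transcripts could not be identified here.

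**Figure D3:**
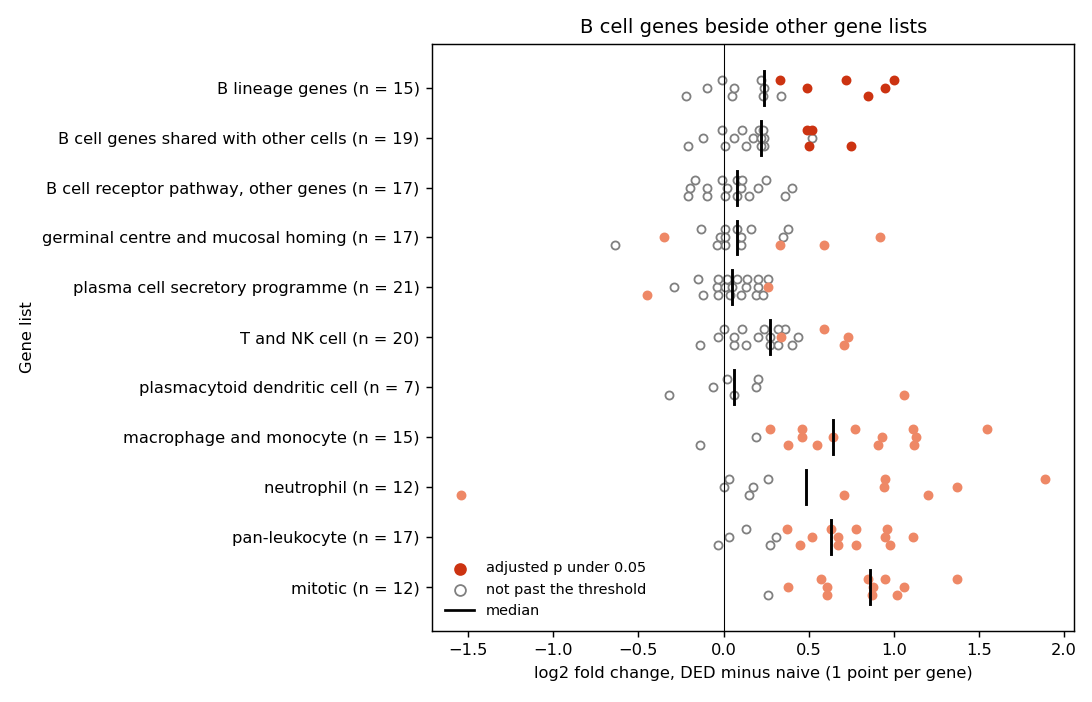
Log2 fold change, DED minus naive, of each measured gene (horizontal axis) in the B lineage and shared genes and in 9 other lists (vertical axis, with the number of genes); filled points passed an adjusted p under 0.05 and the vertical bars are medians. The medians are 0.24 and 0.22 for the B cell genes, 0.63 for pan-leukocyte and 0.64 for macrophage and monocyte genes, and 0.05 for the plasma cell secretory programme.

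Genes of other leukocytes moved on the same arrays. For the counts that follow, 4.41% of all probe sets rose and 2.69% fell by limma. Of 17 measured pan-leukocyte genes 12 rose and 0 fell (unadjusted, 14 higher and 0 lower; in the one-way analysis of variance, 10 and 0). Their mean log2 level was 7.33 to 7.37 on the naive and 7.89 to 7.92 on the DED arrays, a change of 0.56. PTPRC, the common leukocyte phosphatase CD45, rose by 1.11 (adjusted p = 3.36e-04 from limma). Macrophage and monocyte genes rose in 13 of 15 (11 in the one-way analysis of variance). Their mean level was 7.64 to 7.66 in naive and 8.32 to 8.36 in DED. Neutrophil genes rose in 6 of 12 with 1 lower (3 and 1 in the one-way analysis of variance), at 5.87 to 6.02 and 6.37 to 6.48. T and NK cell genes rose in 4 of 20 (2 higher and 1 lower in the one-way analysis of variance), at 5.41 to 5.43 and 5.67 to 5.72. For plasmacytoid dendritic cells, which also make SPIB, JCHAIN and MZB1, 1 of 7 genes rose (PLAC8, at 1.06, which other leukocytes make too). The median over the 7 was 0.06. IRF8 and TCF4, factors of these cells but not of them alone, had 0.20 (limma adjusted p = 0.202) and 0.02 (adjusted p = 0.9). Mitotic genes rose in 11 of 12 (7 in the one-way analysis of variance), with a median of 0.86. Of 12 measured genes of the conjunctival epithelium, stroma and vessels 7 rose and 0 fell by limma (unadjusted, 7 higher and 2 lower), with a median of 0.30. The part of these cells and of dividing cells in the values of BTK, SYK, CD37, CD180 and the other shared genes was not tested.

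Relative to the mean of the pan-leukocyte genes on the same array, the changes of the B cell genes had both signs. MS4A1 was at -1.47, -1.52 and -1.74 in naive and at -1.23, -1.13 and -1.06 in DED, a change of 0.43 (exact permutation test, p = 0.1, the smallest possible with n = 3 a group). FCRLA, CD22 and CD79B changed by 0.39, 0.29 and 0.16 on this scale, and BTK by 0.19, all with groups apart. The leukocyte genes themselves had log2 fold changes from -0.03 to 1.11, so some of them also rose above their own mean. A rise above this mean is thus not particular to B cell genes. CD37, SYK, CD180 and MZB1 changed by -0.08, -0.06, -0.04 and -0.07 with groups that overlapped, so their difference from the leukocyte mean was within the spread between arrays. PAX5, POU2AF1, TNFRSF17 and JCHAIN were lower relative to that mean on all DED arrays, by -0.34, -0.23, -0.32 and -0.78. Over the 34 genes, 5 were higher without overlap, 22 lower without overlap and 7 overlapped. Over all probe sets 1.09% were higher and 88.1% lower without overlap on this scale, since the leukocyte mean itself rose. Nothing about the B cell genes is thus read from the 22, with PAX5, POU2AF1, TNFRSF17 and JCHAIN among them. These values are a description, since the leukocyte genes were listed with their own changes known.

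The 6 arrays behaved alike within each group. The mean level of the 34 genes was 6.45, 6.49 and 6.47 on the naive arrays and 6.75, 6.74 and 6.75 on the DED arrays. No array stood out: among the 10 genes that rose, DED replicates 1, 2 and 3 held the highest DED value in 3, 3 and 4. The median SD within a group over the 34 genes was 0.08 in naive and 0.09 in DED, against 0.10 in both groups over all probe sets. Widest within the naive group was CD38 (SD 0.41), followed by IKZF3 (0.28) and FCRL3 (0.27).

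**Figure D4:**
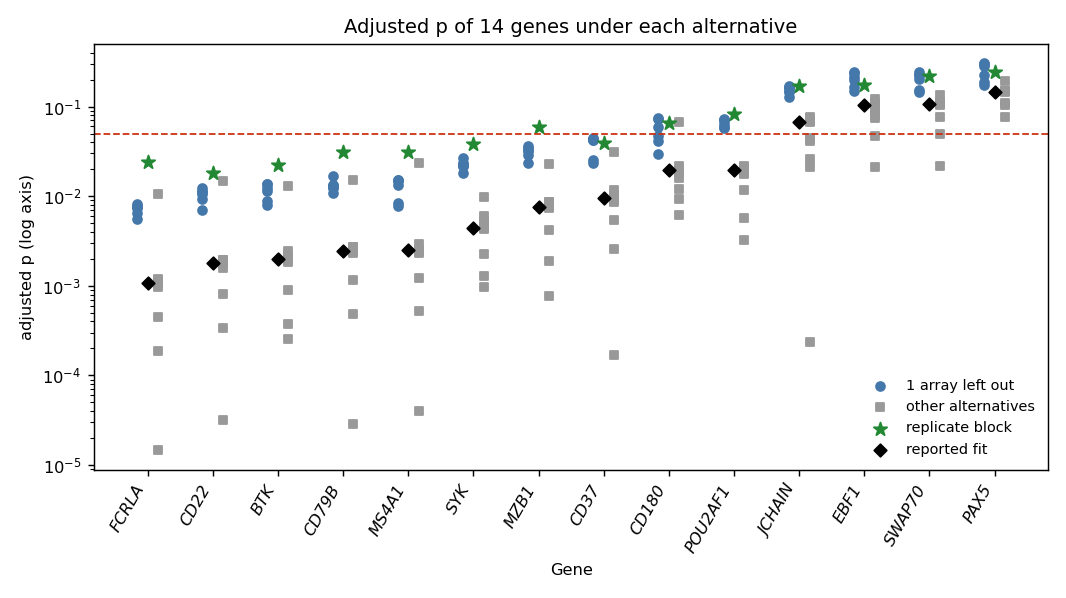
Adjusted p (vertical axis, log scale) of the 14 genes with the lowest adjusted p (horizontal axis) in the reported fit (diamonds), with 1 array left out (circles), with the replicate block (stars) and in 9 other alternatives (squares); the dashed line marks 0.05. FCRLA, CD22, BTK, CD79B, MS4A1, SYK and CD37 stay under the line in every fit, whereas MZB1, CD180 and POU2AF1 cross it in at least 1. JCHAIN, EBF1 and SWAP70, above the line in the reported fit, have values on both sides.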

How the data were processed

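The deposited log2 values were computed by the authors from Rabbit Gene 1.0 ST array scans with RMA (background correction, quantile normalization and summary of the probes of each transcript) with Transcriptome Analysis Console (version not given in the sources used here). A shift of all transcripts together would be removed by this step. Values are rounded to 2 decimals, and the number of arrays limits the precision. DED minus naive was fitted over 23364 probe sets by limma 3.58.1 (lmFit, then eBayes) under R 4.3.3 (prior degrees of freedom 2.55, two-sided, Benjamini-Hochberg). The platform annotation gave 1 symbol to 15795 probe sets and several to 397, and did not list 7172. All 34 measured genes were found by Entrez identifier in RefSeq mOryCun1.1 with the same symbol. Its coordinates were not used, since the sources used here give no build for the probe sets.

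The 40 genes and the 10 other lists were chosen with earlier results of these data known. All measured genes are named, and from other lists at most 4 members each, by size of change among those past the threshold or, where none passed, among all. KRT5, MUC4, IRF8 and TCF4 were added apart from this rule as known markers. The animal number and pool size in the methods leave no animal in more than 1 pool, but the series description gives a larger pool. In either case p-values reflect the spread among pools only. On simulated data, with 200 of 23364 probe sets changed, the fit recovered 39.6% of log2 changes of 0.5 and 77.4% of log2 changes of 1. In the real data 1659 probe sets passed. The adjustment depends on the share that changes, so these rates need not hold for the real data. A gene that did not pass is in either case not shown to be unchanged. Differences from JCHAIN and from the pan-leukocyte mean were chosen after the values were seen. Python 3.11.15, pandas 2.3.3, numpy 2.4.6, scipy 1.17.1 and matplotlib 3.10.9 were also used. Each result was recomputed with eBayes given a trend or robust settings, by one-way analysis of variance, without the dimmest 30% of probe sets, after a further quantile normalization, after centring arrays on their medians, with weighted arrays, with replicate number as a blocking factor, over single-symbol probe sets alone, from the mean of a gene's probe sets, and with each array removed in turn.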

Additional observations from a re-analysis of the deposited data

How the results depend on the processing

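The number of the 34 genes that rose was 7 to 11 under all alternatives (10 in the reported fit), and all 10 were kept with median centring, array weights, a robust fit, quantile normalization once more, single-symbol probe sets, the mean of probe sets, an intensity trend and without the 30% dimmest probe sets. It was 9 by one-way analysis of variance (without CD180) and 8 or 9 with 1 array left out (8 without any DED array). With the replicate number as a block, 7 rose and 0 fell, and CD180, MZB1 and POU2AF1 did not pass (adjusted p = 0.065, 0.0587 and 0.0827). Nothing in the labels ties arrays of equal number to each other, and deviations of same-numbered arrays correlated at -0.015, 0.024 and -0.057. Correlations over all probe sets cannot exclude a batch that affects only some genes. The number that fell was 1 (JCHAIN) in the one-way analysis of variance, with quantile normalization once more and with single-symbol probe sets only, and 2 (JCHAIN and EBF1) with an intensity trend and without the 30% dimmest probe sets; among the lineage genes it was 1 in each of these. Over all probe sets, 1659 passed in the reported fit, 3029 with an intensity trend, 689 with the replicate block and 822 to 1028 with any 1 array left out. Sign changed only in genes near 0 that never passed: FCER2 (-0.20 to 0.02 with 1 array left out), FCRL1 (-0.09 to 0.13 with 1 array left out), BLK (-0.06 to 0.07 with 1 array left out), LYN (-0.02 to 0.02 with 1 array left out, -0.04 with quantile normalization once more) and POU2F2 (-0.04 to 0.10 with 1 array left out, and -0.003 with quantile normalization once more). FCRL1, FCRL3 and BANK1 have no value without the dimmest probe sets. The causes of these differences were not tested.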
